A study of Mus musculus with 22 samples.

Results

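Microglia, the resident macrophages of the brain, carried 2 kinds of LPS-treated control in this RNA sequencing study, and the comparison described here sets one control group against the other. The LPS+dNC group (n = 3) was taken against the LPS group (n = 3), so 6 of the 22 libraries entered the contrast directly. Its members were chosen by their titles, and the comparison covered the 11070 of 15725 genes that reached 1 FPKM in 3 or more libraries. FPKM is the number of sequenced fragments of a gene scaled to its length and to the size of the library.

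All groups came from cortical cultures of newborn C57BL/6 mice, from which microglia were shaken loose, and all received LPS at 100 ng/ml for 24 h. The LPS group had no further treatment named in its labels. The labels do not spell out dNC. The protocol describes Lipofectamine transfection for 48 h with Atg5 siRNA or with control siRNAs before LPS, and the design text pairs LPS+dNC with LPS+siAtg5, so LPS+dNC is read here as the transfection control. The dose of the control siRNA and its sequence are not stated. The remaining groups were LPS+siAtg5 (Atg5 siRNA at 50 nM, n = 5), LPS+Baf A1 (bafilomycin A1 at 10 nM, n = 5) and LPS+CLA (CLA at 50 nM, n = 6), and they serve below only to show where else a level was seen. No untransfected library is tied by its labels to the same culture as an LPS+dNC library. Transfection, the control RNA, the extra culture time, the preparation of the libraries and the way their values were computed therefore cannot be told apart in this contrast.

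LPS is a bacterial cell wall lipid that microglia sense through CD14, MD-2 and Toll-like receptor 4. The receptor signals through NF-kB and MAP kinases to inflammatory genes, and through TRIF and IRF3 to type I interferon, which then induces interferon-stimulated genes by a later, autocrine step. Over the following hours feedback inhibitors, IL-10 and loss of surface receptors damp the response. Lipid-based transfection delivers double-stranded RNA through endosomes, where myeloid cells hold RNA sensors of the Toll-like family, to the cytosol, where they hold sensors of the RIG-I-like family. It also brings cationic lipid into the endolysosomal system.

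The 6 libraries were not equally alike within their groups. Over the genes tested, LPS replicates 1 and 2 differed with an SD of 0.158 on the log2 scale, and LPS replicate 3 differed from them with an SD of 0.273 to 0.284. LPS+dNC replicates 2 and 3 differed with an SD of 0.187, and LPS+dNC replicate 1 differed from them with an SD of 0.351 to 0.388. Unlike the 19 other columns, those of the 3 LPS+dNC libraries carry no unit in their headers, and their values are read here as FPKM. Sums of FPKM were 469750 to 506565 in the LPS group and 556496 to 575125 in the LPS+dNC group. The difference between the groups also moved with transcript length: its Spearman correlation with the longest annotated transcript was -0.23 across 11068 genes, which are not independent replicates and share the same 6 libraries. The median log2 difference was 0.21 in the shortest sixth of genes and -0.13 in the longest, and within the LPS group the correlation of centred levels with length was 0.35 and 0.32 in replicates 1 and 2 but -0.09 in replicate 3. The part of length in the results was not tested beyond refitting after removal of this trend, and those counts stand beside the lists they change most. Among markers of microglia, Itgam was at 735, 739.6 and 536 FPKM in the LPS libraries and 606, 763 and 785 FPKM in the LPS+dNC libraries. C1qa was at 760.0, 747 and 870.2 against 659.7, 555 and 508 FPKM. Neither gene alone tells microglia from other macrophages. The Itgam difference did not pass the test and turned to -0.12 under quantile normalization and to -0.0477 without LPS replicate 3, while without LPS+dNC replicate 1 it was 0.22 (adjusted p = 0.0424). P2ry12 and Tmem119, markers of resting microglia, were under 10 FPKM in all 6 libraries.

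A first count shows how far the 2 control groups stood apart. At an adjusted p under 0.05 (limma, Benjamini-Hochberg over all genes tested), 6329 of 11070 genes (57.2%) differed, 3214 of them higher in LPS+dNC (29.0%) and 3115 lower (28.1%). A difference of at least 2-fold on the log2(FPKM + 1) scale was reached by 491 genes upward (4.44%) and 375 downward (3.39%). The 3 libraries of one group did not overlap with the 3 of the other for 5937 genes (53.6%). Without LPS replicate 3 and LPS+dNC replicate 1, the calls were 3352 genes higher and 3202 lower. The median log2 difference over all genes tested was 0.0017. Counts of called members in the gene lists below are to be read beside the 57.2% called, 29.0% higher and 28.1% lower over all genes. The labels do not say whether libraries came from separate cultures, and the p-values therefore reflect nothing beyond the spread of these libraries, which can be technical. With 3 libraries against 3, an exact permutation test of a single gene could not go below p = 0.1. In bulk RNA, fewer cells of a type and less RNA per cell cannot be told apart.

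**Figure D1:**
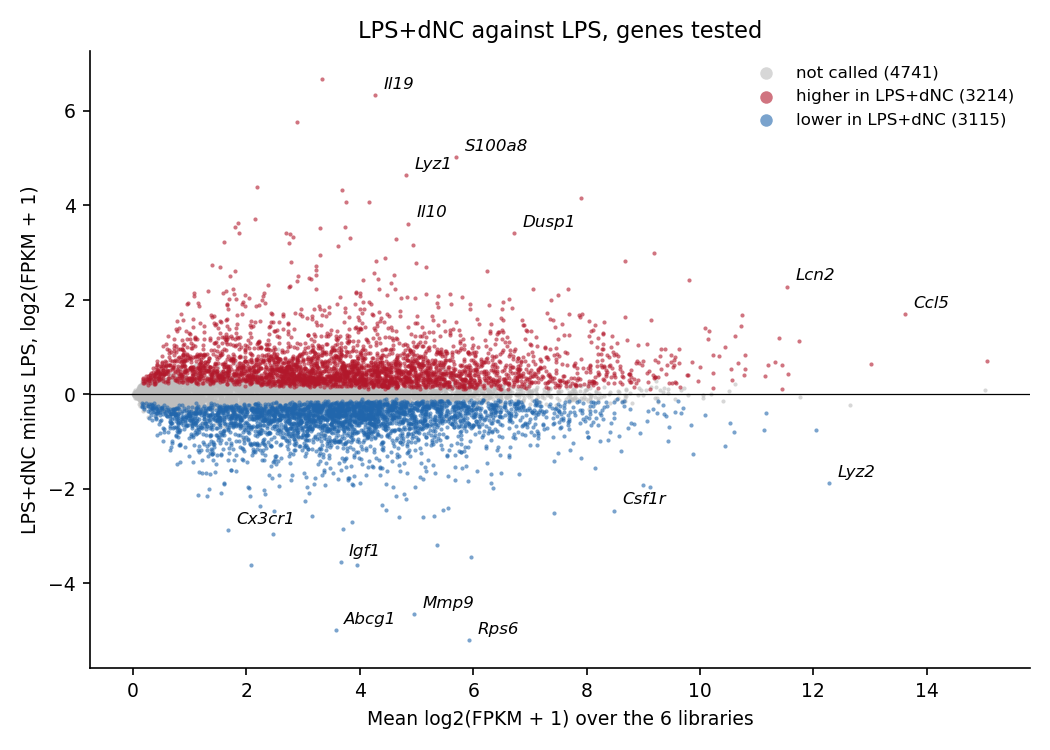
Difference of the LPS+dNC and LPS group means on the log2(FPKM + 1) scale (vertical axis) against the mean level over the 6 libraries on the same scale (horizontal axis), 1 point per gene tested, coloured by call at an adjusted p under 0.05. The 3214 higher and 3115 lower genes lie on both sides of 0 at all levels, and the labelled Il19 and S100a8 lie near the top and Rps6, Abcg1 and Mmp9 near the bottom.

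The other groups show which side of a difference was unusual. Of the called genes, 2812 (25.4% of genes tested) had all 3 LPS+dNC libraries above (1201, 10.8%) or below (1611, 14.6%) all 19 other libraries of the series. In 1096 (9.9%) the 3 LPS libraries lay beyond all 19 others, 374 of them above (3.38%) and 722 below (6.52%). In 460 (4.16%) the 8 transfected libraries, LPS+dNC with LPS+siAtg5, lay together on one side of the 14 others. Of the 866 genes called at 2-fold or more (7.82%), 623 (71.9%) were apart in LPS+dNC, 183 were apart in LPS and 133 were apart in both transfected groups together. A gene can belong to more than one of these classes. On the principal component that ranked second by variance (26.7%), the 3 LPS+dNC libraries lay between -54.09 and -49.44, while the other 19 lay at -13.51 or higher.

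**Figure D2:**
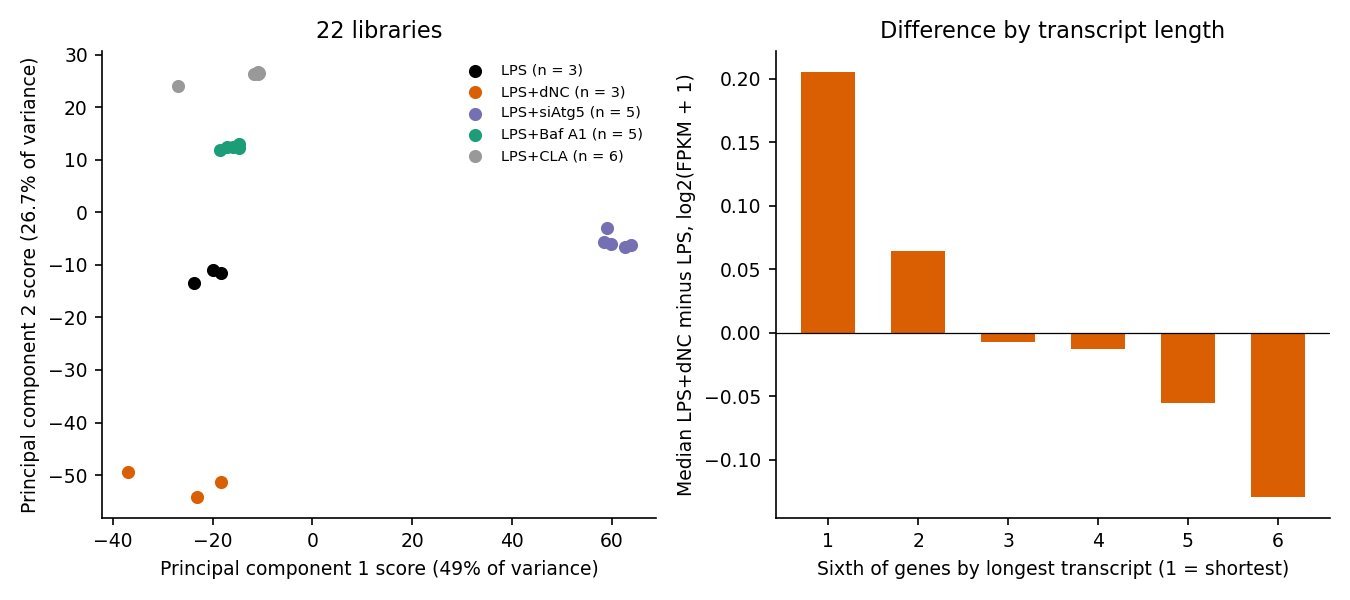
Left, scores of the 22 libraries on the leading pair of principal components of log2(FPKM + 1) (49% and 26.7% of variance), 1 point per library, coloured by group: the 3 LPS+dNC libraries stand alone at the bottom. Right, median log2 difference of LPS+dNC minus LPS in sixths of the genes ordered by longest transcript, from 0.21 in the shortest to -0.13 in the longest.

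Among genes above 0 in all 6 libraries and outside predicted-gene names, the largest rises included a cytokine and a myeloid alarmin. Il19, a cytokine of the IL-10 family, was at 0.65, 1.34 and 1.59 FPKM in the LPS libraries and 118, 169 and 252 FPKM in the LPS+dNC libraries, a log2 difference of 6.32 (SE 0.34, adjusted p = 2.18e-12). The highest of the 19 other libraries, an LPS+CLA library, held 11.4 FPKM. S100a8, a subunit of the secreted calcium-binding protein calprotectin, was at 5.61, 7.7 and 12.4 FPKM in the LPS libraries and 129, 310.3 and 632 FPKM in the LPS+dNC libraries, a difference of 5.01 (SE 0.46, adjusted p = 1.23e-08). Both genes varied more than 2-fold among the LPS+dNC libraries, but in each the lowest of them stood above every LPS library. Il10, the anti-inflammatory cytokine that macrophages make late in the LPS response, rose from 5.71, 5.98 and 11.2 FPKM to 106, 89.8 and 106 FPKM (3.61, SE 0.18, adjusted p = 1.53e-13). In the LPS+siAtg5 libraries Il10 lay at 22.6 to 28.5 FPKM, between the 2 control groups. The LPS+CLA libraries, which were not transfected, also lay between them, at 18.05 to 25.79 FPKM.

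Dusp1, a phosphatase that switches off p38 and JNK, was at 26.9, 29 and 39.7 FPKM in the LPS libraries and 375, 320.1 and 331 FPKM in the LPS+dNC libraries (3.40, SE 0.09, adjusted p = 1.65e-18). No other library of the series held more than 41.8 FPKM of it. Lipg, the phospholipase known as endothelial lipase, rose from 1.49, 2.33 and 1.94 to 30.9, 25.8 and 42 FPKM (3.52, SE 0.19, adjusted p = 4.06e-13). Grk4, a kinase that desensitizes G protein-coupled receptors, was almost unread in the LPS libraries at 0.13, 0.11 and 0.11 FPKM and stood at 11.6, 10.4 and 10.7 FPKM in LPS+dNC (3.41, SE 0.13, adjusted p = 1.45e-15). Urah, which acts in the breakdown of uric acid, Txnl4a, a spliceosome component, and Spaca6, a sperm protein needed for fertilization, also rose, with differences of 4.31, 3.53 and 3.42.

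The remaining large rises were in genes that share transcript sequence with other genes, so that short reads can be divided between them. Lilrb4a, an inhibitory immunoglobulin-like receptor, was at 53.3, 45 and 73.8 FPKM in the LPS libraries and 988, 958 and 1085 FPKM in the LPS+dNC libraries, and 46.7% of its 50-base words also occur in other genes' transcripts. Dynlt1c, a dynein light chain (84.4% shared), Hypk, a ribosome-associated chaperone protein (32.8%), and Hmga1b, a copy of the chromatin protein gene Hmga1 (89.0%), rose by 4.07, 4.06 and 3.70. Of the exonic bases of Hypk, 52.0% are overlapped by other annotated genes. Lyz1 and Lyz2, the pair of mouse lysozyme genes, moved in opposite directions: Lyz1 was at 4.35, 3.98 and 5.88 FPKM in the LPS libraries and 139, 148 and 133 FPKM in the LPS+dNC libraries, while Lyz2 was at 9651, 9091 and 9784 FPKM in the LPS libraries and 2549, 2655 and 2546 FPKM in the LPS+dNC libraries. Their log2 differences were 4.63, SE 0.12, adjusted p = 1.7e-18 and -1.88, SE 0.04, adjusted p = 7.82e-20, and their levels are uncertain where reads fit both, since they share 16.1% and 15.4% of their words. Genes that shared at least 20% of their words, or at least 50% of their exonic bases, with another gene made up 6.24% of the genes tested, 59 of the 491 rises of 2-fold or more and 37 of the 375 such falls.

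The largest falls included genes of cholesterol export, matrix breakdown and microglial signalling. Abcg1, the transporter that hands cholesterol to high-density lipoprotein, was at 59.7, 61.7 and 78.1 FPKM in the LPS libraries and 1.11, 0.71 and 1.62 FPKM in the LPS+dNC libraries (-4.99, SE 0.14, adjusted p = 8.13e-18). The LPS+siAtg5 libraries lay between the groups at 15 to 20.9 FPKM, as did LPS+CLA at 22.4 to 32.25 FPKM and LPS+Baf A1 at 44.73 to 52.57 FPKM. Mmp9, the secreted gelatinase, fell from 149, 147 and 169 FPKM to 1.56, 8.94 and 8.22 FPKM (-4.66, SE 0.29, adjusted p = 3.08e-11), and no library outside LPS+dNC held less than 77.5 FPKM. Igf1, a growth factor that microglia supply to neurons and oligodendrocyte precursors, was at 40.1, 39.5 and 47.6 FPKM in the LPS libraries and 3.34, 2.52 and 2.29 FPKM in the LPS+dNC libraries (-3.55, SE 0.11, adjusted p = 1.04e-17). Cx3cr1, the receptor for the neuronal chemokine fractalkine, was low in LPS at 9.63, 7.86 and 5.88 FPKM and nearly unread in LPS+dNC at 0.27, 0.15 and 0.11 FPKM (-2.88, SE 0.13, adjusted p = 3.3e-14). LPS+siAtg5 held 13 to 14.8 FPKM of Cx3cr1 and LPS+Baf A1 10.88 to 12.75 FPKM, above both control groups.

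Slc6a12, a betaine and GABA transporter, fell by 3.62 on the log2 scale, Plxdc2, a transmembrane plexin-domain protein, by 2.70, and Slamf8, a SLAM-family receptor of myeloid cells, by 2.60. Rps6, a protein of the small ribosomal subunit, showed the largest fall of all: it was at 353, 361 and 389 FPKM in the LPS libraries and 7.31, 11 and 9.13 FPKM in the LPS+dNC libraries (-5.20, SE 0.09, adjusted p = 2.42e-22), and the 19 other libraries held 353 to 640.3 FPKM. Of its words, 43.8% occur elsewhere. Rps15a, another protein of that subunit, fell from 187, 222 and 206 to 19.3, 16.9 and 17.9 FPKM, and Mrpl17, of the mitochondrial ribosome, from 28.4, 34.2 and 40 to 3.9, 3.82 and 3.83 FPKM. Ppp2r3d, a regulatory subunit of protein phosphatase 2A, had a difference of -2.96. Evi2b, a membrane protein encoded inside an intron of Nf1, had one of -3.20 with 98.6% of its words shared.

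**Figure D3:**
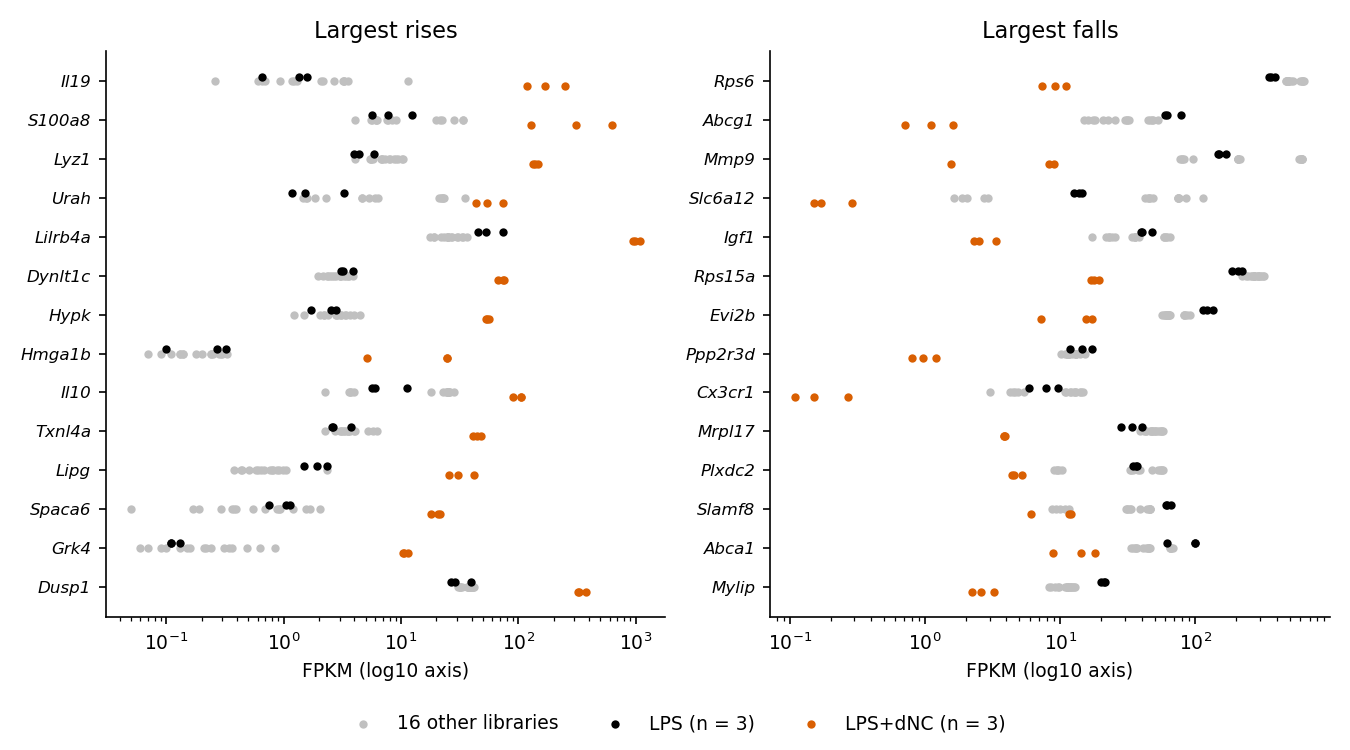
FPKM on a log10 axis, 1 point per library, of the genes with the largest rises (left) and falls (right) that are above 0 in all 6 control libraries; LPS and LPS+dNC libraries are coloured and the 16 libraries of the other groups are grey. In every gene shown the 3 LPS+dNC and 3 LPS libraries do not overlap.

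Some genes were listed at exactly 0 in all 3 LPS libraries and at 1 FPKM or more in all 3 LPS+dNC libraries. There were 10 of them, and none in the opposite direction. All 10 were also under 1 FPKM in the 16 libraries of the other groups. Gm20594 was listed at 0 in LPS and at 123, 91.1 and 92.4 FPKM in LPS+dNC, and Gm8909, a predicted gene, at 0 and at 58.3, 52.6 and 49.5 FPKM. Olfr1033, of the odorant receptor family, stood at 13.1, 19.6 and 29.9 FPKM and Zbtb8b, a zinc finger protein, at 6.61, 8.1 and 10.7 FPKM, with every LPS library at 0. A value of exactly 0 in a table without counts can be a failed estimate, so no fold is given. Plin2, which coats lipid droplets, had 2 lines in the table, alike except for the LPS+dNC values. On the line used here it was at 452, 471 and 523 FPKM in the LPS libraries and 942, 918 and 929.7 FPKM in the LPS+dNC libraries (0.95, SE 0.10, adjusted p = 2.86e-08), and on the other line the LPS+dNC values were 0.32, 0.25 and 0.19 FPKM.

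Receptors and adaptors of LPS sensing divided into risers and fallers. Of 17 Toll-like receptors and co-receptors tested, 7 were higher and 6 lower (76.5% called against 57.2% of all genes, median log2 difference -0.11). Tlr4, the receptor itself, was at 34.2, 31.1 and 25 FPKM in the LPS libraries and 7.01, 7.27 and 7.83 FPKM in the LPS+dNC libraries (-1.88, SE 0.08, adjusted p = 9.95e-15). The LPS+siAtg5 libraries also held less of it than every library without transfection, at 13.7 to 15.4 FPKM. Cd14, which loads LPS onto the complex, fell from 434, 433 and 526 to 210.4, 278 and 227 FPKM (-0.96, SE 0.10, adjusted p = 2.12e-08), and Tlr2, the receptor for bacterial lipoproteins, from 87.9, 83.4 and 66.9 to 30.6, 35.5 and 29.1 FPKM (-1.29, SE 0.09, adjusted p = 4.03e-11). Ly96, which encodes MD-2, the partner of Tlr4, rose from 29, 29.9 and 37.4 to 65.6, 54 and 64.2 FPKM (0.91, SE 0.09, adjusted p = 1.7e-08). Ly86, the equivalent partner of the related receptor Cd180, rose by 0.82 while Cd180 fell by 0.66 on the log2 scale.

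Downstream of these receptors, 12 of 23 NF-kB subunits and feedback inhibitors were higher and 6 lower (78.3% called against 57.2% of all genes, median 0.19). Nfkbia, the inhibitor that NF-kB itself induces, was at 207, 223 and 241 FPKM in the LPS libraries and 469, 428 and 399 FPKM in the LPS+dNC libraries (0.95, SE 0.08, adjusted p = 1.07e-09). Zc3h12a, an RNase that degrades cytokine messages, rose from 37.7, 38.6 and 39.4 to 74.8, 82.4 and 67.2 FPKM, and Bcl3, a nuclear IkB protein, from 26.8, 27.6 and 30.5 to 54.7, 60.1 and 53.5 FPKM. Nfkb1, which encodes p105 and p50, fell from 104, 110.2 and 104 to 52.9, 65.8 and 62.2 FPKM (-0.81, SE 0.08, adjusted p = 7.62e-09), and Cyld, a deubiquitinase that restrains the pathway, from 14.1, 13.2 and 10.5 to 9.25, 8.83 and 8.81 FPKM (-0.44, SE 0.07, adjusted p = 2.22e-05). Immediate early genes, which respond within minutes to many stimuli, were higher in 14 of 24 and lower in 5 (median 0.46). Besides Dusp1, Dusp2 rose from 22.7, 23 and 35 to 116, 108 and 114 FPKM, Zfp36, which destabilizes cytokine messages, from 117, 118 and 166 to 325, 315 and 309 FPKM, and Egr1 from 3.92, 4.22 and 4.82 to 11.7, 21.5 and 20.7 FPKM. Jund, Dusp4, Ier5 and Csrnp1 fell, by 0.98, 1.32, 0.45 and 0.73 on the log2 scale.

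Of 46 interferon-stimulated genes tested, 23 were higher and 11 lower (median 0.21), a called share of 73.9% against 57.2% over all genes. Under quantile normalization the split was even, with 19 higher and 19 lower. Bst2, which tethers enveloped virus to the cell, was at 875, 977 and 1090.2 FPKM in the LPS libraries and 1997, 1939 and 1953 FPKM in the LPS+dNC libraries (1.01, SE 0.07, adjusted p = 7.77e-11). Gbp2, a GTPase that attacks pathogen vacuoles, rose from 541, 542 and 613 to 1249, 1013 and 1060.1 FPKM (0.97, SE 0.08, adjusted p = 4.48e-10), and Oas2, a sensor that activates RNase L, from 110.1, 112 and 103 to 162, 174 and 172 FPKM. Oas1a rose by 0.70 but shares 57.6% of its words with other genes. In the other direction, Ifit3, an antiviral RNA-binding protein, fell from 1209.7, 1217 and 1366 to 916, 878 and 1018 FPKM (-0.43, SE 0.07, adjusted p = 1.05e-05), with 51.2% of its words shared. Ifnb1, the interferon that starts the loop, was at 3.91, 3.69 and 5.07 FPKM in the LPS libraries and 0.35, 0 and 0.17 FPKM in the LPS+dNC libraries (-2.16, SE 0.14, adjusted p = 1.36e-11). Its level in the LPS libraries was above that of all 19 others. LPS+siAtg5 held 0.67 to 1.27 FPKM, LPS+Baf A1 0.9 to 1.33 FPKM and LPS+CLA 0.19 to 0.75 FPKM.

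Among receptors and factors of the pathway, 9 of 17 were higher and 3 lower (median 0.21). Ifnar2, a chain of the type I interferon receptor, was at 95.1, 93.8 and 101 FPKM in the LPS libraries and 194, 196 and 199 FPKM in the LPS+dNC libraries (1.01, SE 0.05, adjusted p = 3.12e-14), and Ifngr2, of the interferon gamma receptor, rose by 0.92. Socs1, a feedback inhibitor of JAK kinases, rose from 9.59, 10.8 and 13.1 to 33.2, 33.3 and 24.6 FPKM. Irf1 fell from 199.5, 205 and 178 to 107, 102 and 95.3 FPKM and Irf8, a factor of macrophage development, by 0.57 on the log2 scale. Sensors of nucleic acids were split, with 9 of 27 higher and 11 lower (median -0.02), and 4 higher and 14 lower under quantile normalization, 5 and 11 under median-of-ratios scaling and 5 and 11 without LPS+dNC replicate 1. Irf7, the factor that amplifies interferon output, rose from 1459, 1481 and 1624 to 2096, 1984 and 2004 FPKM (0.42, SE 0.06, adjusted p = 2.24e-06), but under quantile normalization its difference was -0.0314 (adjusted p = 0.648). Tlr9, the endosomal receptor for unmethylated DNA, fell from 44.5, 42.8 and 26.5 to 24.3, 14.3 and 12.4 FPKM, and Dhx58, a RIG-I-like helicase, by 0.38 on the log2 scale. Of the RNA interference machinery, which loads and uses siRNA, 6 of 17 tested members were called (35.3%, against 57.2% over all genes). Of these Ago3 and Mov10 were higher, by 0.75 and 0.26, and Tnrc6b, Tnrc6c, Tarbp2 and Dicer1 lower. The lower calls fell to 2 without LPS replicate 1, LPS replicate 2 or LPS+dNC replicate 1, and with the length trend removed, a setting added after the data had been seen, 4 members were higher and 1 lower. Dicer1 was at 6.45, 7.58 and 3.45 FPKM in LPS and 3.5, 4.52 and 4.35 FPKM in LPS+dNC (-0.37, SE 0.15, adjusted p = 0.0414), with overlapping libraries, and its adjusted p was 0.16 without LPS+dNC replicate 1. Tarbp2 had an adjusted p of 0.0749 without LPS replicate 3 and 0.08 without LPS+dNC replicate 3.

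Stretches of promoter are shown for 4 of these genes because the same letters stand before genes that rose and genes that fell. They are the 250 bases before the start in RefSeq (GRCm38.p6), printed along the strand of the gene, with capitals marking each match to the motif on either strand. A match on the opposite strand reads as the reverse complement. The interferon response element core was searched as TTTC, any 2 bases and TTTC, and the kappaB motif as GGG, any 2 bases and TTTCC, on both strands. No window can match both, although matches can overlap in part.
Gbp2 (rose; chr3:142620413-142620662, plus strand): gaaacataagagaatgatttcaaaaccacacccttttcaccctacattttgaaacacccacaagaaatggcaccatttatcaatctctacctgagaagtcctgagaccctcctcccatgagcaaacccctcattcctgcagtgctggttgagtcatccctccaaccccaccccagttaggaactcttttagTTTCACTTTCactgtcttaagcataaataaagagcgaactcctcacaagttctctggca
Ifit3 (fell; chr19:34583279-34583528, plus strand): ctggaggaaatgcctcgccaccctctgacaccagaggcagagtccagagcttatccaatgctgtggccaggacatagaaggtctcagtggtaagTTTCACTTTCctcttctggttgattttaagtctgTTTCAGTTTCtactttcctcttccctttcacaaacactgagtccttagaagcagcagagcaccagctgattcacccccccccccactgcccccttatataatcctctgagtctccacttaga
Nfkbia (rose; chr12:55492648-55492897, minus strand): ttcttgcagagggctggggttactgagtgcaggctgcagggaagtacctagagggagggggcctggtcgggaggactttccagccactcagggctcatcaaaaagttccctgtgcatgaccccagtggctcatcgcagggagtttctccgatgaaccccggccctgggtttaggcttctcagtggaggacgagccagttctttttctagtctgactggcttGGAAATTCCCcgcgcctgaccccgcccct
Cyld (fell; chr8:88696778-88697027, plus strand): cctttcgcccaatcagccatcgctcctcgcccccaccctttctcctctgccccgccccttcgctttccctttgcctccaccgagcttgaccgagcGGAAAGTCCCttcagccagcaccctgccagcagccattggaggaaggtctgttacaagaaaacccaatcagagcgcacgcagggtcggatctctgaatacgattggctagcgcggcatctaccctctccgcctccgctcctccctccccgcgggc

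Over the window from 250 bases before to 50 after the start, 8990 genes tested had a RefSeq promoter, and 4.12% of these held the interferon element core. It stood in 14 of 20 interferon-stimulated genes that rose (70.0%) and in 3 of 9 that fell (33.3%), and in 5.07% of all higher and 3.48% of all lower genes. The kappaB motif stood in 2.11% of all promoters, in 2.10% of those of higher genes and 1.95% of those of lower genes. Among genes called at 2-fold or more it stood in 8 of 382 higher (2.09%) and 14 of 300 lower (4.67%), a difference that was not tested. In the NF-kB list it was found in 3 of 10 higher and 2 of 5 lower genes. A match is a string of letters and not evidence of binding.

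Of 30 cytokines and enzymes tested, 17 were higher and 5 lower (median 0.30). Il1b was at 884, 970.4 and 1059.6 FPKM in the LPS libraries and 389.9, 591 and 509.9 FPKM in the LPS+dNC libraries (-0.98, SE 0.17, adjusted p = 3.55e-05), and Tnf, at 202, 207 and 274 FPKM in the LPS libraries and 258, 279 and 226 FPKM in the LPS+dNC libraries, did not pass the test (adjusted p = 0.368) with overlapping groups. Il12b, a subunit of IL-12 and IL-23, rose from 0.39, 0.33 and 0.5 to 11.3, 5.57 and 6.69 FPKM and Il18, a substrate of caspase-1, from 27.7, 29.3 and 31.6 to 81.8, 85.5 and 93.4 FPKM (1.53, SE 0.09, adjusted p = 8.51e-13). LPS+Baf A1, which was not transfected, held 5.27 to 7.29 FPKM of Il12b. Edn1, the vasoconstrictor endothelin, rose from 8.5, 8.11 and 11.7 to 40.3, 53.2 and 65.7 FPKM. Osm, an IL-6 family cytokine, and Cd40, a costimulatory receptor, fell by 0.64 and 0.41 on the log2 scale. Of 24 chemokines and receptors tested, 10 were higher and 5 lower (62.5% called against 57.2% of all genes, median 0.20). Those counts were 9 and 7 under quantile normalization and 7 and 8 with the length trend removed. Ccl5, which draws T cells and monocytes, was at 6421, 6463 and 8359 FPKM in the LPS libraries and 25299, 21827 and 21169 FPKM in the LPS+dNC libraries (1.69, SE 0.09, adjusted p = 1.46e-13), and Ccl4 rose from 554, 602 and 894 to 1776, 1707 and 1853 FPKM. Cxcl9, an interferon gamma target, rose from 19.3, 18.4 and 25.9 to 75.6, 70.2 and 91.1 FPKM, and Cxcl16 and Pf4 fell by 0.69 and 1.51.

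Genes of the IL-10 axis and of tissue repair did not move as a block: 8 of 20 were higher and 5 lower (65.0% called against 57.2% of all genes, median 0.28). With Il10, Il4ra, the IL-4 receptor, rose from 89.2, 102 and 95.7 to 170.0, 175 and 189 FPKM and Pdgfb, a growth factor, by 1.72. Gas6, a bridge between dying cells and their receptors, fell from 18.6, 17.1 and 16.2 to 4.91, 4.86 and 4.03 FPKM (-1.71, SE 0.15, adjusted p = 1.71e-09), and Mrc1, the mannose receptor, from 14.7, 13.8 and 8.77 to 0.7, 1.71 and 1.94 FPKM (-2.46, SE 0.23, adjusted p = 5.25e-09). In arginine and itaconate metabolism 5 of 15 were higher and 6 lower, and the lower count was 4 without LPS replicate 2, LPS replicate 3 or LPS+dNC replicate 3. Nos2, the inducible nitric oxide synthase, was at 169.6, 169 and 222 FPKM in the LPS libraries and 540.0, 490.3 and 583 FPKM in the LPS+dNC libraries (1.53, SE 0.18, adjusted p = 2.81e-07), and Slc7a2, which imports its substrate arginine, rose from 54.2, 61 and 47.5 to 165, 213 and 205 FPKM. The LPS+Baf A1 libraries reached similar levels of Slc7a2, at 167.4 to 203.5 FPKM. Arg2, which consumes arginine, fell from 19.8, 20.5 and 22.8 to 5.74, 4.95 and 8.56 FPKM, while Arg1 was at 0.92, 15.1 and 21.7 FPKM in the LPS+dNC libraries against 5.4, 5.7 and 9.76 FPKM in LPS (adjusted p = 0.77). The Arg1 difference was 1.31 without LPS+dNC replicate 1 (adjusted p = 1.75e-05), -0.23 without replicate 2 and -0.48 without replicate 3 of that group.

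Antigen presentation and uptake differed by receptor class. In the MHC class I pathway 15 of 22 genes were higher and 1 lower (median 0.30). Psmb9, a subunit of the immunoproteasome, was at 60.8, 66.2 and 72.8 FPKM in the LPS libraries and 237, 177 and 189.9 FPKM in the LPS+dNC libraries (1.57, SE 0.08, adjusted p = 1.46e-13), and Tap2, which pumps peptides into the endoplasmic reticulum, rose from 54.2, 57.3 and 52.8 to 154, 131 and 127 FPKM. The gene that fell was Nlrc5, the transactivator of the pathway, by 0.29 on the log2 scale, with an adjusted p of 0.0847 once the length trend was removed. The split of the pathway was 11 higher and 6 lower under quantile normalization and 12 and 3 with the length trend removed, and 2 genes were lower without LPS+dNC replicate 3. Phagocytic and Fc receptors were higher in 12 of 21 and lower in 7 (median 0.27). Fcer1g, the signalling chain of Fc receptors, rose from 2160.5, 2181 and 2661 to 5608, 4852 and 4849.9 FPKM (1.13, SE 0.07, adjusted p = 3.39e-12), and Cd300lf, a receptor for phospholipids, from 3.39, 3.66 and 2.98 to 20.7, 16.3 and 20.7 FPKM. Lrp1, an endocytic receptor for apolipoprotein E, fell from 56.4, 61.7 and 35.7 to 16.2, 16.1 and 12.8 FPKM (-1.67, SE 0.14, adjusted p = 1.02e-09) and Stab1, which clears modified lipoproteins, by 1.63.

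Of 13 scavenger and lectin receptors, 7 were lower and 3 higher (median -0.35), a called share of 76.9% against 57.2% over all genes. With array weights 7 were lower and 5 higher. Marco, which binds bacteria, was at 1096, 1048 and 1145 FPKM in the LPS libraries and 196, 365 and 312 FPKM in the LPS+dNC libraries (-1.95, SE 0.13, adjusted p = 3.08e-11), and Cd36, which binds oxidized lipoproteins and fatty acids, at 200.1, 203 and 200.2 FPKM in the LPS libraries and 44.9, 72.8 and 71.7 FPKM in the LPS+dNC libraries (-1.69, SE 0.18, adjusted p = 6.13e-08). Both were below all 19 other libraries. Complement genes were lower in 8 of 16 and higher in 3 (68.8% called against 57.2% of all genes, median -0.21). C5ar1, the C5a receptor, fell from 272, 286 and 279 to 82, 119.7 and 116 FPKM, while Cd55, which speeds the decay of convertases, rose from 0.26, 0.28 and 0.59 to 10.6, 6.62 and 4.37 FPKM. LPS+CLA, which was not transfected, held 3.61 to 9.26 FPKM of Cd55. Of 9 secreted antimicrobial proteins, 5 were higher and 3 lower, and 4 and 4 under quantile normalization. Lcn2, which binds bacterial siderophores, was at 1178, 1284 and 1632 FPKM in the LPS libraries and 6141, 6540.2 and 6964 FPKM in the LPS+dNC libraries (2.27, SE 0.18, adjusted p = 7.99e-10), and Saa3, an acute phase protein and among the most abundant messages in all 6 libraries, rose from 26017, 25684 and 29165 to 42637, 45422 and 42817 FPKM.

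The cholesterol exporters Abcg1 and Abca1 fell, while most genes of its synthesis and uptake rose. LXR receptors switch on genes that export cholesterol, and SREBP2 switches on synthesis and uptake when sterols in the endoplasmic reticulum are low. Of 13 LXR targets and receptors tested, 6 were lower and 4 higher (median 0.05). Beside Abcg1, Abca1, which exports cholesterol to lipid-poor apolipoprotein, was at 99.5, 98.8 and 61.7 FPKM in the LPS libraries and 8.78, 14.2 and 18.1 FPKM in the LPS+dNC libraries (-2.60, SE 0.16, adjusted p = 1.2e-11), Mylip, a ubiquitin ligase that limits cholesterol uptake, at 21.4, 20 and 21 FPKM in the LPS libraries and 2.22, 2.59 and 3.25 FPKM in the LPS+dNC libraries (-2.57, SE 0.08, adjusted p = 1.72e-17), and Pltp, a phospholipid transfer protein, fell from 139, 143 and 174 to 54.3, 37.2 and 33.3 FPKM (-1.87, SE 0.12, adjusted p = 6.26e-12). Smpdl3a rose by 0.61, and the receptors Nr1h3 and Nr1h2 by 0.29 and 0.20. Without LPS replicate 1, or without LPS+dNC replicate 2, the higher calls of this list fell to 2 and Nr1h2 had an adjusted p of 0.0749 and 0.0684. Of 25 genes of cholesterol synthesis and uptake, 18 were higher and 1 lower (median 0.58, against 0.0017 over all genes tested). Msmo1, a sterol methyl oxidase, rose from 9.12, 8.01 and 9.69 to 24.5, 25.8 and 24.5 FPKM (1.39, SE 0.09, adjusted p = 5.35e-12) and Idi1, which makes an isoprenoid building block, from 1.6, 2.18 and 1.62 to 4.35, 6.46 and 5.8 FPKM. Scap, the escort of SREBP2, was the member that fell, from 6.83, 8.29 and 5.72 to 4.31, 5 and 4.33 FPKM. In LPS+siAtg5, Mylip lay at 8.24 to 9.83 FPKM, in LPS+Baf A1 at 10.92 to 12.14 FPKM and in LPS+CLA at 11.67 to 12.88 FPKM.

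**Figure D4:**
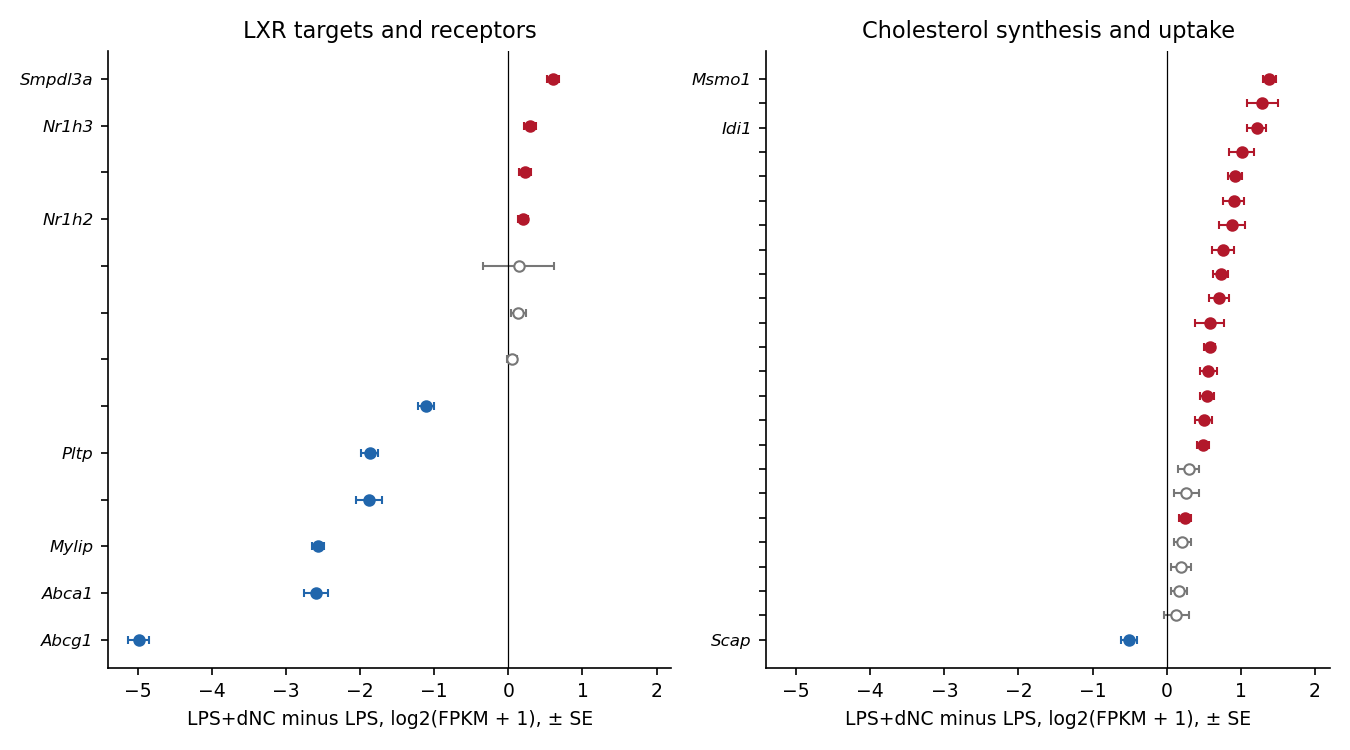
Log2 difference of LPS+dNC minus LPS on the log2(FPKM + 1) scale, with its standard error from limma, for tested LXR targets and receptors (left) and tested genes of cholesterol synthesis and uptake (right, 1 member not drawn), with names for the genes described in the text; filled points passed an adjusted p under 0.05. Abcg1, Abca1 and Mylip are the 3 lowest points on the left, and on the right Scap is the filled point below 0.

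Other lipid genes were mixed. In fatty acid synthesis and desaturation, 3 of 21 were higher and 4 lower (33.3% called against 57.2% of all genes). Without LPS+dNC replicate 1 the counts were 8 and 3, and under quantile normalization 5 and 4. Fads2 was at 0.29, 5.27 and 3.25 FPKM in LPS+dNC replicates 1, 2 and 3 against 0.9, 0.92 and 1.07 FPKM in LPS (adjusted p = 0.057), and without LPS+dNC replicate 1 its difference was 1.40 (adjusted p = 2.35e-08). Fads1 did not pass (adjusted p = 0.432), and its difference turned to 0.0029 under array weights. Scd1 was at 0.22, 0.3 and 0.33 FPKM in LPS and 0.16, 4.11 and 3.1 FPKM in LPS+dNC, so its call (1.18, SE 0.33, adjusted p = 0.00445) rested on replicates 2 and 3, and fitting only the 6 control libraries gave an adjusted p of 0.108. Of 27 PPAR receptors and lipid storage genes, 11 were higher and 8 lower. Plin2 counts here as higher on the line used, and its other line was not fitted. Besides it, Hilpda, a lipid droplet protein that inhibits lipolysis, rose from 6.55, 7.5 and 8.74 to 23.6, 30 and 34.4 FPKM (1.81, SE 0.12, adjusted p = 2.83e-11), Fabp4, a fatty acid carrier, from 6.17, 5 and 7.7 to 30, 24.5 and 41 FPKM, and Cpt1a, which admits fatty acids to mitochondria, from 23.1, 23 and 18.7 to 56.1, 54.1 and 52.5 FPKM. Acsl1, which activates fatty acids, fell from 171, 170.1 and 141 to 55.1, 55.4 and 39.5 FPKM (-1.68, SE 0.11, adjusted p = 1.47e-11). Pparg itself was at 1.29, 0.61 and 1.04 FPKM in the LPS libraries and 1.31, 0.29 and 0.17 FPKM in the LPS+dNC libraries (adjusted p = 0.264), with a difference of -0.67 without LPS+dNC replicate 1 (adjusted p = 0.0393). Among eicosanoid genes, 4 of 18 were higher and 5 lower, with Ptgs1, the constitutive cyclooxygenase, at 3.43, 3.66 and 2.96 FPKM in the LPS libraries and 0.33, 0.4 and 0.39 FPKM in the LPS+dNC libraries.

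Glycolysis and hypoxia genes were higher in 22 of 33 and lower in 1 (median 0.44), and 2 were lower without LPS replicate 1, LPS replicate 2, LPS+dNC replicate 1 or LPS+dNC replicate 3. Pfkfb3, which makes the activator of phosphofructokinase, was at 93, 95 and 72.5 FPKM in the LPS libraries and 347, 367 and 399 FPKM in the LPS+dNC libraries (2.09, SE 0.12, adjusted p = 9.68e-13). Slc2a1, the glucose transporter, rose from 35.6, 35.5 and 47 to 64, 85.9 and 97.8 FPKM and Bnip3, a mitophagy receptor induced in hypoxia, from 17.1, 20.4 and 22.7 to 40.5, 55.3 and 74.8 FPKM. For both, libraries of other groups reached the LPS+dNC levels. Subunits of the respiratory chain encoded in the nucleus were higher in 28 of 48 and lower in 12 (median 0.34). These are short genes, and genes of the same length had a median of 0.21. With the length trend removed, 21 were higher and 16 lower, with a median of 0.05. Ndufa4 was at 40.4, 36.1 and 43.6 FPKM in the LPS libraries and 123, 105 and 116 FPKM in the LPS+dNC libraries (1.50, SE 0.08, adjusted p = 1.92e-13) and Uqcrq at 58.9, 75 and 82.6 FPKM in the LPS libraries and 34.8, 28.5 and 24.1 FPKM in the LPS+dNC libraries (-1.28, SE 0.12, adjusted p = 5.97e-09). Cytosolic ribosomal proteins, which are short and have many processed copies, were higher in 39 of 85 and lower in 25, with 29 and 34 under quantile normalization and 22 and 45 with the length trend removed. Without genes that share sequence, 16 were higher and 14 lower.

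Of 23 genes of the ATF4 integrated stress response, which raises amino acid supply when translation is throttled, 17 were lower and 3 higher (median -0.50). Sars, a seryl-tRNA synthetase, was at 98.1, 98.1 and 89.2 FPKM in the LPS libraries and 32.4, 30.7 and 31.4 FPKM in the LPS+dNC libraries (-1.56, SE 0.06, adjusted p = 3.4e-16), Mthfd2, of mitochondrial folate metabolism, fell from 81.2, 86.3 and 84.1 to 44.4, 40.5 and 31.3 FPKM (-1.11, SE 0.07, adjusted p = 1.91e-11) and Sesn2, which senses leucine for mTORC1, by 0.99. Nupr1, a small stress-induced chromatin protein, went the other way, from 166, 156 and 189.8 to 551, 407 and 465 FPKM (1.46, SE 0.10, adjusted p = 5.6e-11), and Slc7a11, the cystine transporter, rose by 1.12. Folding and quality control genes of the endoplasmic reticulum were lower in 14 of 25 and higher in 1 (median -0.37). Derl2, of the degradation channel, fell from 31.4, 31.3 and 37.8 to 15.8, 16.9 and 15.1 FPKM (-1.02, SE 0.06, adjusted p = 3.46e-12), Canx, the lectin chaperone calnexin, from 121, 115 and 104 to 65.2, 71.6 and 77.9 FPKM, and Manf by 0.86. The riser was Syvn1, the ubiquitin ligase of that channel, by 0.55, and 2 were higher without LPS replicate 2 or LPS replicate 3 and 3 with the length trend removed or without LPS replicate 3 and LPS+dNC replicate 1 together. Cytosolic heat shock proteins were split, with 6 of 18 higher and 8 lower: Bag3 rose by 0.97 and Dnaja1 fell by 0.88. NRF2 targets were balanced at 10 of 31 in each direction, with Gsr, glutathione reductase, higher by 0.63 and Prdx1, a peroxiredoxin, lower by 0.65.

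**Figure D5:**
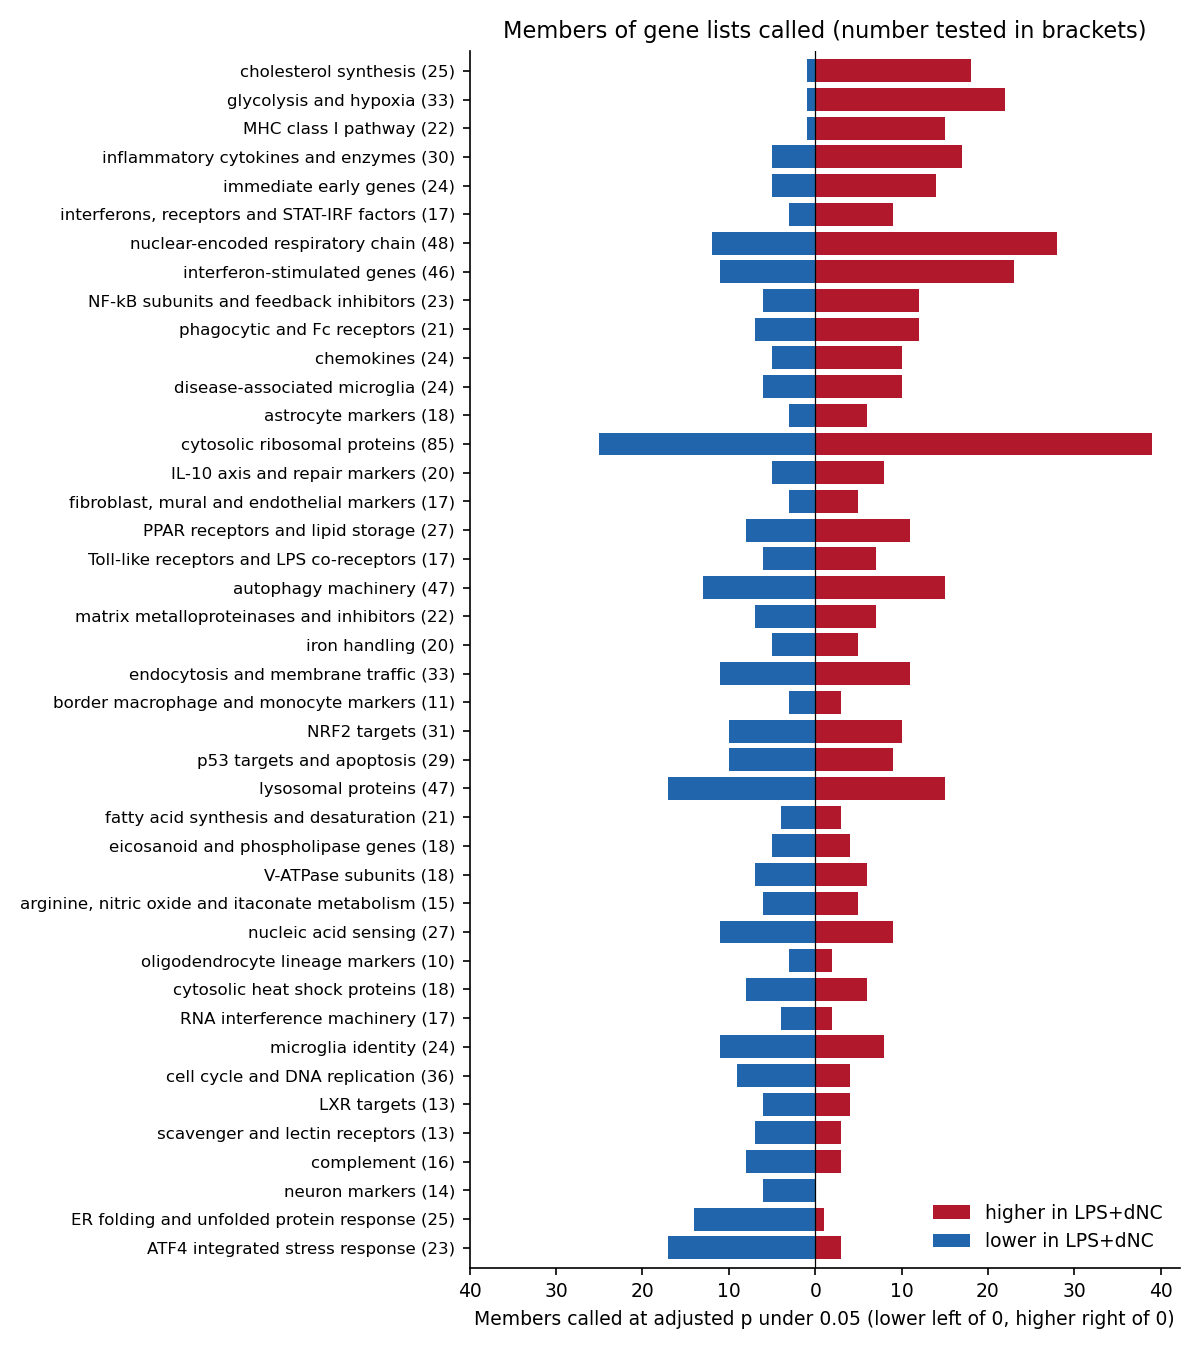
Number of tested members higher (right of 0) and lower (left of 0) in LPS+dNC at an adjusted p under 0.05, for each gene list with at least 10 tested members, ordered by the share of members higher minus the share lower; the tested number stands beside each name. Cholesterol synthesis (18 and 1 of 25), glycolysis and hypoxia (22 and 1 of 33) and the MHC class I pathway (15 and 1 of 22) lie at the top, and ATF4 targets (3 and 17 of 23) and endoplasmic reticulum folding (1 and 14 of 25) at the bottom.

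Autophagy and lysosome genes are the subject of the wider study. Of 47 genes of the autophagy machinery, 15 were higher and 13 lower (median 0.02), a called share of 59.6% against 57.2% over all genes. Atg5, the target of the siRNA in the other transfected group, was at 20.4, 20.1 and 19.8 FPKM in the LPS libraries and 24.3, 21.4 and 21.4 FPKM in the LPS+dNC libraries (0.14, SE 0.05, adjusted p = 0.0275), against 12.6 to 13.5 FPKM in LPS+siAtg5. The Atg5 call was lost in 9 of 20 alternative settings, with an adjusted p of 0.194 without LPS+dNC replicate 1, 0.0589 without LPS replicate 2 and 0.0546 without LPS replicate 3. Atg12, its conjugation partner, rose from 15.4, 14.4 and 14.5 to 30.1, 28.6 and 30 FPKM (0.96, SE 0.05, adjusted p = 7.69e-14) and Gabarapl2, a homologue of LC3, from 27.1, 28.3 and 34.5 to 55.1, 53.6 and 60.3 FPKM. Sqstm1, the autophagy receptor p62, fell from 502, 531 and 613 to 424, 316 and 272 FPKM (-0.72, SE 0.10, adjusted p = 3.2e-06), and Rb1cc1, a scaffold of the initiating kinase, by 0.90. Of 18 V-ATPase subunits, 6 were higher and 7 lower (4 and 8 under quantile normalization), with Atp6v1d up by 1.17 and Atp6v1a down, at -0.48. Of 47 lysosomal proteins, 15 were higher and 17 lower (68.1% called), and 11 and 25 under quantile normalization. The cathepsins illustrate the split, since Ctsb rose from 1734, 1697 and 1903 to 4713, 3926 and 3525 FPKM (1.18, SE 0.07, adjusted p = 9.66e-13) and Ctsc fell from 1016, 988 and 978 to 377, 231 and 205 FPKM (-1.92, SE 0.13, adjusted p = 3.69e-11). Endocytosis genes were 11 higher and 11 lower of 33 (66.7% called), with Ap2m1, of the clathrin adaptor, lower by 0.88 and Pak1, a kinase of macropinocytosis, lower by 1.71.

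Growth, death and matrix genes gave no single direction. Of 36 cell cycle genes, 4 were higher and 9 lower (36.1% called). Cks2, a cyclin-dependent kinase subunit that shares 29.7% of its words, rose by 2.51, and Cdk1 fell from 3.44, 3.45 and 5.96 to 1.2, 0.9 and 0.85 FPKM. Of 29 p53 targets and apoptosis genes, 9 were higher and 10 lower (65.5% called against 57.2% of all genes). Bid, which links death receptors to mitochondria, fell by 0.68. Of 22 metalloproteinases and inhibitors, 7 were higher and 7 lower (63.6% called). Against the fall of Mmp9, Mmp13, a collagenase, was at 357, 379.5 and 423 FPKM in the LPS libraries and 1059, 2507 and 3250.3 FPKM in the LPS+dNC libraries (2.41, SE 0.29, adjusted p = 4.39e-07). In iron handling, 5 of 20 were higher and 5 lower (50.0% called), and the metallothioneins Mt1 and Mt2 rose by 1.47 and 1.71.

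Microglial identity genes were called in 19 of 24 cases (79.2%, against 57.2% over all genes), 8 higher and 11 lower (median -0.11). Csf1r, the survival receptor of microglia, was at 1029, 1005 and 572 FPKM in the LPS libraries and 156, 182 and 122 FPKM in the LPS+dNC libraries (-2.46, SE 0.17, adjusted p = 8e-11). LPS replicate 3 was the lowest of its group and still above every LPS+dNC library, and no other library of the series was below 422 FPKM. Spi1, which encodes the lineage factor PU.1, rose from 238, 253 and 265 to 400.2, 376 and 350.2 FPKM (0.57, SE 0.06, adjusted p = 7.68e-09), Cst3, the protease inhibitor cystatin C, from 344, 345 and 430.1 to 869.8, 784 and 693 FPKM, and Mertk, a receptor for dying cells, by 0.62. Of 24 markers of disease-associated microglia, 10 were higher and 6 lower, with 8 and 8 under quantile normalization and 9 and 11 with the length trend removed. Cd52 rose from 942, 995 and 1142 to 2813, 2268 and 2188 FPKM (1.23, SE 0.07, adjusted p = 2.25e-12), and Lpl, lipoprotein lipase, fell from 60.1, 53.3 and 42.4 to 12.7, 9.25 and 10.7 FPKM (-2.15, SE 0.17, adjusted p = 4.7e-10).

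Markers of neurons, astrocytes, oligodendrocytes, fibroblasts, mural and endothelial cells were low and did not follow the groups evenly. Those of border macrophages and monocytes were not low. They summed to 1212.1 to 1237.6 FPKM in LPS and 1194.0 to 1412.2 FPKM in LPS+dNC, with 3 of 11 tested higher and 3 lower. The 18 neuron markers in the table summed to 20.3 to 25.1 FPKM in the LPS libraries and to 2.60 to 23.2 FPKM in LPS+dNC, and 6 of 14 tested were lower with none higher, or 4 lower and 2 higher without LPS+dNC replicate 1. Dcx, of migrating neuroblasts, was at 3.68, 3.72 and 2 FPKM in LPS and 0, 0.88 and 1.57 FPKM in LPS+dNC. The 20 astrocyte markers summed to 17.8 to 27.1 FPKM against 10.5 to 60.8 FPKM, with 6 of 18 higher and 3 lower. Those counts were 7 and 1 without LPS+dNC replicate 1, 3 and 5 without replicate 2 and 3 and 2 without replicate 3 of that group. The 1 FPKM filter ran over all 22 libraries, so a marker could enter through its level in LPS+siAtg5. With the filter on the 6 control libraries, 2 astrocyte markers were higher and 2 lower. With only those 6 libraries fitted, the counts were 1 and 0. Sparcl1 was at 0.8, 0.83 and 1.12 FPKM in LPS and 0.92, 16.3 and 15.3 FPKM in LPS+dNC, so that replicate 1 resembled the LPS libraries and replicates 2 and 3 did not, and Aqp4, an astrocyte water channel, was at or under 1 FPKM in all 6. Neither call held throughout: with only the 6 control libraries fitted, the adjusted p was 0.0727 for Sparcl1 and 0.128 for Aqp4, and Aqp4 also missed the threshold without LPS replicate 2 (0.0774) or LPS+dNC replicate 1 (0.0794). In LPS+siAtg5 the astrocyte sum was 620.7 to 719.6 FPKM. Markers of fibroblasts, mural and endothelial cells summed to 35.2 to 37.5 FPKM in LPS and 15.3 to 32.7 FPKM in LPS+dNC. Of 17 tested, 5 were higher and 3 lower, or 2 and 3 without LPS replicate 1 and 3 and 3 without LPS+dNC replicate 1. With the filter on the 6 control libraries the counts were 2 and 3. The oligodendrocyte list summed to 81.2 to 91.4 and 83.9 to 108.8 FPKM, with 2 of 10 tested higher and 3 lower, or 5 and 2 without LPS+dNC replicate 1. With the filter on the 6 control libraries its counts were 1 and 2. The sums of both neuron and astrocyte markers were lowest in LPS+dNC replicate 1, and their part in the differences above was not tested. Of 22 markers of neutrophils, mast cells and lymphocytes, 6 were in the table and 4 of these were under 1 FPKM in all 6 libraries, so the list's sum of 129.9 to 633.1 FPKM in LPS+dNC was almost wholly S100a8.

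Genes that stood on one side in both transfected groups are listed last, because LPS+siAtg5 shares the transfection step with LPS+dNC. In 357 genes (3.22%) the 8 transfected libraries were above all 14 others and in 103 (0.93%) below. LPS+siAtg5 also differed from all other groups in ways that LPS+dNC did not share. Its libraries held 10752 to 10908 genes at 1 FPKM or more, against 9112 to 9571 in the other libraries. Its astrocyte markers summed to 620.7 to 719.6 FPKM and its neuron markers to 80.8 to 101.6 FPKM, above every other group. The part of transfection or of cell mix in these genes was not tested. The contrasts of these groups with LPS share the LPS libraries, so only the levels are given. Tsc22d3, the glucocorticoid-induced leucine zipper, was at 3.49, 3.45 and 3.66 FPKM in the LPS libraries and 52.7, 43.3 and 36.9 FPKM in the LPS+dNC libraries and at 9.1 to 11.9 FPKM in LPS+siAtg5. Fkbp5, a cochaperone of the glucocorticoid receptor, was at 3.21, 3.4 and 2.77 FPKM in the LPS libraries and 30.7, 36.9 and 38.1 FPKM in the LPS+dNC libraries, with LPS+siAtg5 at 6.31 to 7.31 FPKM. F11r, a junctional adhesion molecule, was at 5.85, 6.96 and 6.16 FPKM in the LPS libraries and 44.5, 50.8 and 57.6 FPKM in the LPS+dNC libraries and at 12.5 to 14.9 FPKM in LPS+siAtg5. For these 3 genes the LPS+siAtg5 libraries lay above LPS but nearer to it than to LPS+dNC in FPKM. Ece2 was at 12.3, 12.6 and 10.2 FPKM in LPS+dNC and 0.44 to 0.73 FPKM in LPS+siAtg5, with 54.6% of its words shared. Among the falls, Slamf8 was at 61.3, 60.6 and 65.9 FPKM in the LPS libraries and 6.04, 12 and 11.6 FPKM in the LPS+dNC libraries and at 8.69 to 11.7 FPKM in LPS+siAtg5, and Plxdc2 at 36.4, 36.9 and 34.8 FPKM in the LPS libraries and 5.19, 4.53 and 4.41 FPKM in the LPS+dNC libraries and 9.03 to 10.2 FPKM. Slc6a12 was at 14.6, 12.8 and 13.9 FPKM in the LPS libraries and 0.17, 0.29 and 0.15 FPKM in the LPS+dNC libraries, with LPS+siAtg5 at 1.64 to 2.92 FPKM. The transfected groups overlapped in Slamf8, while Slc6a12 and Plxdc2 were lower in every LPS+dNC library than in every LPS+siAtg5 library.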

How the data were processed

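Messenger RNA selected with oligo(dT) from cultured mouse microglia was sequenced on an Illumina NovaSeq. The deposited values are FPKM, given by the authors to 2 decimals for 15725 gene symbols (15726 lines) in 22 libraries. Per the file headers, 19 columns hold FPKM. The 3 LPS+dNC columns carry no unit in theirs. Per the submitters' processing notes, CASAVA 1.7, fastp 0.18.0, Bowtie2 2.2.8, HISAT2 and StringTie 1.3.1 were used. No role is named for any of them, and neither build nor annotation is given in the sources used here. The depth of each library is unknown, since no counts enter, and no counting error can be given.

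Libraries were grouped by title. Genes that reached 1 FPKM in 3 or more libraries were tested on log2(FPKM + 1), with limma 3.58.1 in R 4.3.3 (5 group means over all 22 libraries, 17 residual degrees of freedom, trended and robust variances, Benjamini-Hochberg adjustment, threshold 0.05). A fold change on this scale understates the change of low genes. The fit was tested on simulated data. Of the 2 lines of Plin2 the first was used. The symbol-line alternative summed the lines where they differed, and the second line alone was not fitted. That alternative therefore cannot show how the Plin2 result depends on the choice of line. Medians of lists are over tested members. Shared sequence is the share of a gene's 50-base words found in transcripts of other genes in GENCODE vM21 (GRCm38), in which 15720 symbols were found. Names and lists were chosen with earlier results of these data known. Named genes were the 14 largest non-overlapping rises and falls at 5 FPKM or more in the higher group, the genes listed at 0 in a whole control group with the highest means in the other, up to 4 called members per direction of each list, the largest differences shared by both transfected groups and 10 genes always shown. Itgam, C1qa, P2ry12 and Tmem119 were added as markers. A few genes that the rule names are not reported here. Alternatives changed the pseudocount, filter, scaling, weights, libraries fitted, replicate block and symbol lines. Removal of a length trend and of genes that share sequence were added after the data had been seen.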

Additional observations from a re-analysis of the deposited data

How the results depend on the processing

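With a replicate block over the 6 control libraries, 1995 genes were higher and 1817 lower, against 3214 and 3115. The numbers do not pair the samples: deviations of libraries with the same number had correlations of -0.0732, 0.1 and -0.131, and not every library correlated best with its own number. With only the 6 control libraries fitted and no block, 2395 were higher and 2254 lower. A pseudocount of 0.1 gave 625 genes lower by 2-fold or more, against 375. Leaving out each control library in turn gave 2886 to 3404 genes higher, 2713 to 3415 lower, 465 to 542 higher by 2-fold or more and 342 to 448 lower by 2-fold or more. The other settings left these 4 counts within 1.5 times. Of the 866 genes called at 2-fold or more, 87.0% to 100% were still called in the same direction over the 20 settings, and in the stricter filter and the removal of shared sequence some of them were not tested.

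Of the 3434 values of 173 genes named here under these settings, 3365 kept their direction and side of the threshold, 50 values of 13 genes lost the call, 13 values of 6 genes gained it and 6 values of 4 genes changed sign. Arg1 was at -0.23 and -0.48 without LPS+dNC replicates 2 and 3, Fads1 at 0.0029 under array weights, Irf7 at -0.0314 under quantile normalization, and Itgam at -0.12 under quantile normalization and between -0.0477 (without LPS replicate 3) and 0.22 (without LPS+dNC replicate 1) over the left-out libraries; the cause was not tested. Under the block, Dcx, Nr1h3 and Mov10 also missed the threshold. Of 1840 counts over lists, 129 moved by more than 1.5 times. Median-of-ratios scaling and quantile normalization put the median of all genes at -0.0211 and -0.0182. Without counts, the error of low levels could not be separated from the spread between libraries.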
